A study of Mus musculus with 8 samples.

Results

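The SOCS/CIS family of cytokine signal inhibitors was examined in naive CD8+ T cells of mice labelled Furin KO and mice labelled WT. Its 8 members, Socs1 to Socs7 and Cish, were taken by symbol from 55573 mouse gene IDs counted by RNA sequencing of total RNA. FURIN is a protease that cleaves precursor proteins in the secretory pathway. The 5 Furin KO libraries comprised 1 from a mouse of 7 weeks (replicate 1) and 4 from mice of 8 weeks, and the 3 WT libraries comprised 1 of 7 weeks (replicate 1) and 2 of 8 weeks. All mice were male and of the C57BL/6 background, and the cells were enriched for CD8a from spleen and lymph nodes and then sorted. The sources used here name no allele, no Cre driver and no cell type in which a deletion acts. Whether every library stems from a separate mouse is likewise not said, so the p-values reflect the spread between libraries, which may be technical. The family was chosen by symbol with the Furin KO against WT result in view, and was selected on the genotype values of Socs3, which is among the genes called there. Its genotype values are therefore a description, with no test, whereas the age of the mice played no part in the choice.

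SOCS proteins end the signal of cytokine receptors. Cytokines activate Janus kinases (JAK) and STAT transcription factors, STATs switch on SOCS genes, and the SOCS proteins then bind receptors or kinases through an SH2 domain. Through a carboxy-terminal SOCS box they recruit elongin B, elongin C and cullin 5, which mark bound proteins for degradation, and SOCS1 and SOCS3 can also block kinase activity directly. In T cells SOCS1 restrains interferon-gamma and common gamma chain cytokine signals, SOCS3 restrains receptors that use gp130, and CIS, the product of the STAT5 target Cish, restrains T cell receptor signals.

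RefSeq windows on GRCm38.p6, from 250 bases before to 50 after an annotated start, were at hand for 4 of the 8 members, Socs1, Socs3, Socs4 and Cish. Socs2, Socs5, Socs6 and Socs7 had none. They were searched on both strands for TTCNNNGAA, the palindromic core that STAT dimers are known to bind, and for GAAA, any 2 bases and GAAA again, a repeat of the kind that interferon regulatory factors are known to bind. The stretches with matches are shown, with the matches in capitals, because Socs3 has the largest genotype difference of the family, Socs1 the largest age difference, and Cish is the best known STAT5 target.
Socs3, chr11:117969452-117969616, minus strand: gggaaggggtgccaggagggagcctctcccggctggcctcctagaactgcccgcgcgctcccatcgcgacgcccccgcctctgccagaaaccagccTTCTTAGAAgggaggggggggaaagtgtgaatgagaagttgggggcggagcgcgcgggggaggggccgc
Socs1, chr16:10785537-10785786, minus strand: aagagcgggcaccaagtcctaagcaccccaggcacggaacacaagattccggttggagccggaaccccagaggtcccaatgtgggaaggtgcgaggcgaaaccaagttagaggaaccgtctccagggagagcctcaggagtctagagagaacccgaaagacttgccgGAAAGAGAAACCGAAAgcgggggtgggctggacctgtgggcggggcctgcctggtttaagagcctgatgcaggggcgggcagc
Cish, chr9:107296654-107296683, plus strand: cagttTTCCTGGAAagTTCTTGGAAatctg
The Socs3 stretch is the part before the RefSeq start that lies outside annotated exons, and its TTCNNNGAA match begins 154 bases before that start. The start differs from the outer end of the Socs3 gene span given below, 117970047 on the minus strand. The stretch therefore lies inside that span and not upstream of it. The Socs1 stretch holds 2 overlapping matches to the GAAA repeat, which begin 83 and 77 bases before the start. The 30 bases of Cish hold 2 TTCNNNGAA matches, the first at the RefSeq start and the second 11 bases after it, and lie inside an annotated exon. They, too, lie inside the gene span given below, which begins at 107296026. The Socs4 window held neither motif. Of 32851 mouse windows of 300 bases, 8.3% held TTCNNNGAA, 0.457% at least 2 times. The GAAA repeat was in 3.44%, and in 0.225% at least 2 times. A match is a description of the letters and does not show binding in these cells.

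Total counts ranged from 11308220 to 21040431 in the Furin KO libraries, the lowest being replicate 5, and from 14463450 to 19159021 in the WT libraries. Furin, the targeted gene, had 63.5, 86.4, 62.2, 58.0 and 76.6 CPM (counts per M counts of the library, scaled by TMM factors) in the Furin KO libraries against 57.0, 66.8 and 66.9 CPM in WT, with a log2 fold change of 0.12 (95% interval -0.15 to 0.40). A whole-gene count does not show which exons were read, so it does not check the labels, and every direction below is between libraries as labelled. The summed level of 7 naive CD8+ T cell markers was 9148 to 10687 CPM in Furin KO libraries and 8686 to 10191 CPM in WT. Summed markers of other cell types were near 0 with 1 exception. The 4 B cell markers summed to 0 to 1.34 CPM in Furin KO libraries and 0.480 to 0.574 CPM in WT, nearly all of it Cd79a, with Ms4a1 and Cd22 at 0 counts throughout. The 6 myeloid markers summed to 0.320 to 1.41 CPM in Furin KO libraries and 0.313 to 2.08 CPM in WT, from Itgam in all 8 libraries and Lyz2 in Furin KO replicates 2 and 5, with Csf1r, Cd14, S100a8 and S100a9 at 0 counts. The 4 dendritic cell markers summed to 0 to 2.28 CPM in Furin KO libraries and 0 to 1.237 CPM in WT, with Siglech and Clec9a at 0 counts. The 3 markers of CD4 or regulatory T cells summed to 0.439 to 2.52 CPM in Furin KO libraries and 2.19 to 3.36 CPM in WT. Most of it was Foxp3, except in Furin KO replicate 5, the lowest sum, where Foxp3 had 0 counts. The exception was the NK cell list, at 264 to 361 CPM in Furin KO libraries and 283 to 327 CPM in WT. Its sum was almost all Nkg7, which CD8+ T cells also express, and Ncr1 and Klra4 had 0 counts. In bulk samples, fewer cells that express a gene and less RNA per cell cannot be told apart.

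Socs3 was the most abundant member and the one with the largest difference between the genotypes. Socs3 (ENSMUSG00000053113, GRCm38 chromosome 11, 117966079 to 117970047, minus strand) had 431, 553, 360.3, 457 and 424 CPM in Furin KO replicates 1 to 5, against 245, 231 and 231 CPM in WT replicates 1 to 3. Every Furin KO library stood above every WT library. The Furin KO values were more spread than the WT values. The mean was 445 ± 70.0 CPM in Furin KO (SD, n = 5) and 236 ± 8.30 CPM in WT (SD, n = 3), resting on 4824 to 11542 and 3577 to 4434 counts per library.

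The edgeR fit gave Socs3 a log2 fold change of 0.92 (SE 0.12, 95% interval 0.67 to 1.16), or 1.89-fold with an interval of 1.59 to 2.24. It is the 1 of 7 tested members past an adjusted p of 0.05 in that fit, where 0.0320% of 12500 tested genes passed, 0.0240% higher and 0.00800% lower in Furin KO. It is the 1 of 7 with an unadjusted p under 0.05, where 3.21% of all tested genes had one. It is the 1 of 7 whose groups did not overlap, where 2.90% of all tested genes did not. These counts describe the result for which the family was chosen. Consecutive sample titles were grouped here into runs, 1 to 2, 3 to 5 and 6 to 8, which no label names as batches. Each run holds 1 WT library and 1 or 2 Furin KO libraries. The ratio of Socs3 in Furin KO to WT was 1.76 in the first run, 1.97 in the second and 1.91 in the third. Leaving out 1 library at a time gave log2 fold changes of 0.83 to 0.98.

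Early response genes, which stress during tissue handling can induce, varied widely within both genotypes. For some this went with the run of titles. Fos had 85.8 to 204 CPM in titles 3 to 5 and 801 to 1075 CPM in the other runs, whereas Egr1 overlapped between the runs. The summed level of 13 early response genes, such as Fos, ran from 1458 to 5922 CPM in Furin KO libraries and from 1763 to 6042 CPM in WT, and 11 of its 12 tested genes were below 0, with a median log2 fold change of -0.16. Of these genes 0 passed the edgeR test, DESeq2 or limma-voom, and 0 had an unadjusted edgeR p under 0.05. Among all tested genes 0.0320% passed the edgeR test and 3.21% had an unadjusted edgeR p under 0.05. The part of these genes in the Socs3 difference was not tested.

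A marker of antigen-experienced T cells, like Socs3, had higher values in every Furin KO library than in every WT library. Groups did not overlap, in either direction, at 2.90% of all tested genes. Tbx21, which encodes the transcription factor T-bet and is named here after its values were seen, had 4.41, 8.38, 7.32, 6.24 and 7.30 CPM in Furin KO libraries, against 2.88, 1.93 and 1.237 CPM in WT. Its log2 fold change was 1.74 (95% interval 1.005 to 2.48, edgeR adjusted p = 0.171). DESeq2 called it, as did edgeR without the filter on low counts, and limma-voom did not. Of the 6 listed markers 0 passed the edgeR test, where 0.0320% of all tested genes did. Their log2 fold changes were above 0 for 5, the median being 0.36, with Ccl5 below 0 at -0.56. Their sum overlapped, at 237 to 303 CPM in Furin KO libraries and 245 to 267 CPM in WT, most of it Il2rb, whose log2 fold change was 0.0021. The part of these markers in the Socs3 difference was not tested.

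**Figure D1:**
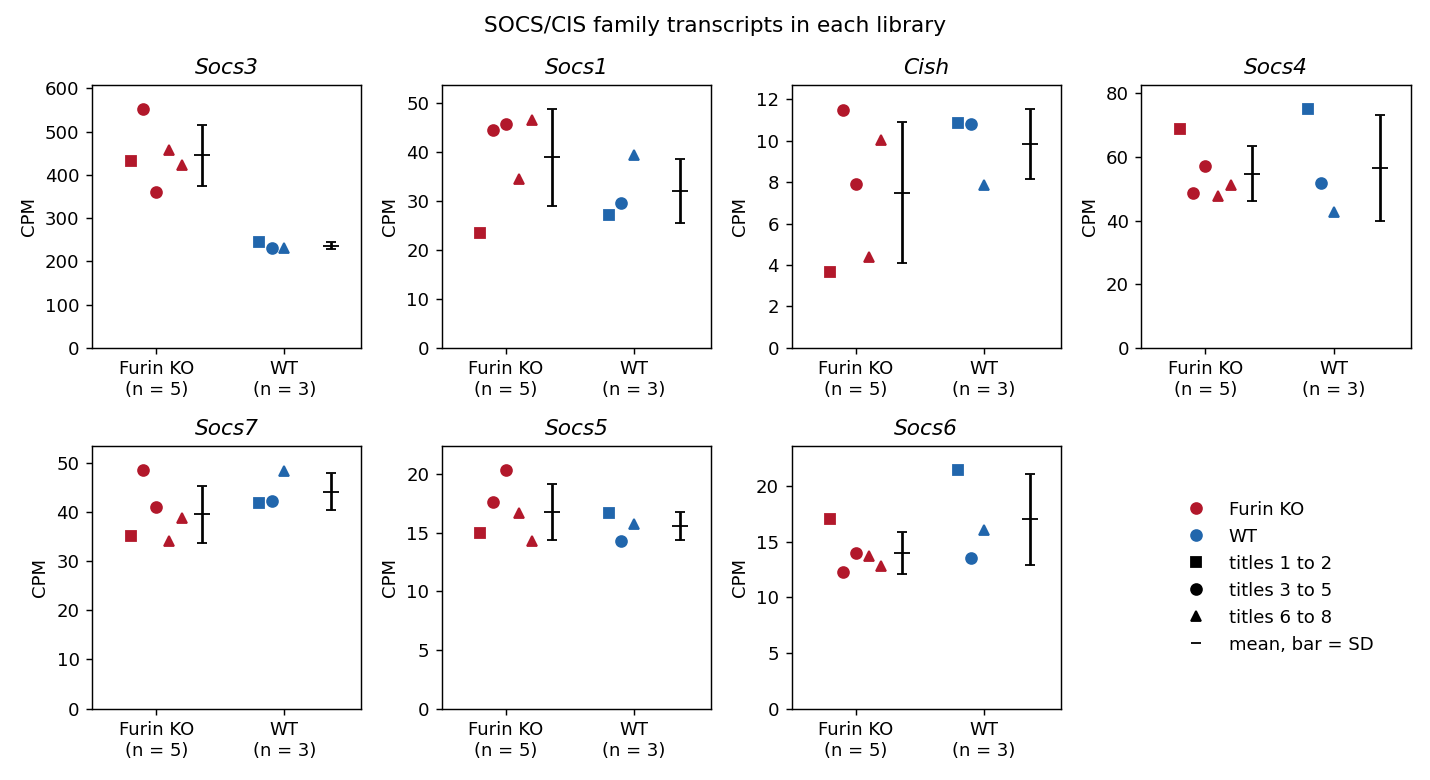
CPM of the 7 tested members in each library, Furin KO left (red, n = 5) and WT right (blue, n = 3), with symbols for runs of consecutive sample titles and a bar for mean and SD. Socs3 libraries lie between 360.3 and 553 CPM in Furin KO and between 231 and 245 CPM in WT, and the groups overlap at the other 6 genes.

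Socs1, the other member with a kinase inhibitory region, had overlapping groups. Socs1 (ENSMUSG00000038037, chromosome 16, 10782240 to 10785536, minus strand) had 23.6, 44.6, 45.7, 34.5 and 46.6 CPM in Furin KO replicates 1 to 5, against 27.2, 29.6 and 39.5 CPM in WT. 3 of the 5 Furin KO libraries stood above all WT libraries, and the 7-week Furin KO library stood below all of them. The means were 39.0 ± 9.89 CPM in Furin KO (n = 5) and 32.1 ± 6.51 CPM in WT (n = 3), with a log2 fold change of 0.28 (95% interval -0.13 to 0.69). The ratio within runs of titles was 0.867, 1.52 and 1.03, so its direction differed between runs.

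Cish, which STAT5 is known to induce, was the member with the widest scatter. Cish (ENSMUSG00000032578, chromosome 9, 107296026 to 107302784, plus strand) had 3.69, 11.5, 7.91, 4.38 and 10.02 CPM in Furin KO replicates 1 to 5, against 10.8, 10.8 and 7.87 CPM in WT. Furin KO replicates 1 and 4 lay below all WT libraries, and replicate 2 lay above them. The log2 fold change was -0.40 (95% interval -1.07 to 0.27), from 76 to 240 counts per Furin KO library and 140 to 207 per WT library. Its ratio of Furin KO to WT was 0.340 in the 7-week pair and 0.898 and 0.915 in the other two runs. A test of whether the genotype effect differs between 8 and 7 weeks gave Cish a log2 difference of 1.41 (95% interval -0.03 to 2.85, edgeR adjusted p = 0.99998), with 1 library of each genotype at 7 weeks. 2 genes on the opposite strand, Gm17041 and Gm17040, overlap exons of Cish, and both had 0 counts in every library. The strand setting of the counting is not given, so their reads could stand under Cish.

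Socs2, an inhibitor known for growth hormone receptor signalling, was close to absent. Socs2 (ENSMUSG00000020027, chromosome 10, 95385362 to 95417180, minus strand) had 2 counts in Furin KO replicate 2 and 5 in replicate 4. It had 0 counts in the other 3 Furin KO libraries and in all 3 WT libraries. A count of 0 allows up to 3 counts, which is 0.143 to 0.264 CPM in Furin KO libraries and 0.157 to 0.206 CPM in WT, counting error only. Socs2 did not pass the filter on low counts and was not tested.

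Socs4 to Socs7, whose proteins have long amino-terminal regions and whose known roles lie mainly with growth factor and insulin receptors, had overlapping groups. Socs4 (ENSMUSG00000048379, chromosome 14, 47276931 to 47296102, plus strand), an inhibitor linked to epidermal growth factor receptor signalling, had 68.8, 48.7, 57.3, 47.6 and 51.2 CPM in Furin KO libraries, against 75.2, 52.0 and 42.7 CPM in WT. The 7-week library was the highest in each genotype. The log2 fold change was -0.05 (95% interval -0.39 to 0.30), and it was 0.21 without WT replicate 1 and 0.11 in the 8-week libraries alone.

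Socs5 (ENSMUSG00000037104, chromosome 17, 87107679 to 87137839, plus strand), linked to interleukin-4 and epidermal growth factor signals, had 14.98, 17.6, 20.4, 16.7 and 14.3 CPM in Furin KO libraries, against 16.7, 14.3 and 15.8 CPM in WT. 2 of the 5 Furin KO libraries, replicates 2 and 3, stood above all WT libraries. The log2 fold change was 0.11 (95% interval -0.24 to 0.46).

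Socs6 (ENSMUSG00000056153, chromosome 18, 88665224 to 88927481, minus strand), linked to insulin and T cell receptor signalling, had 17.1, 12.3, 14.0, 13.7 and 12.8 CPM in Furin KO libraries, against 21.5, 13.5 and 16.0 CPM in WT. Furin KO replicates 2 and 5 lay below all WT libraries, and within each genotype the 7-week library was the highest. The log2 fold change was -0.28 (95% interval -0.66 to 0.11), and the log2 ratio was below 0 in each run of titles, at -0.33, -0.04 and -0.27.

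Socs7 (ENSMUSG00000038485, chromosome 11, 97362551 to 97398542, plus strand), linked to insulin receptor signalling, had 35.2, 48.6, 41.0, 34.0 and 38.9 CPM in Furin KO libraries, against 41.7, 42.3 and 48.4 CPM in WT. 4 of the 5 Furin KO libraries lay below all WT libraries, and replicate 2 lay above them. The log2 fold change was -0.16 (95% interval -0.44 to 0.12).

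Over the 7 tested members, 3 had log2 fold changes above 0 and the median was -0.05, beside a median of -0.00068 over all tested genes, of which 49.8% were above 0. The intervals of the 6 members other than Socs3 span 0, and each reaches a change of 0.39 or more in 1 direction, so that changes of that size are within what these samples allow. By DESeq2 and limma-voom, too, Socs3 alone was called among the members.

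**Figure D2:**
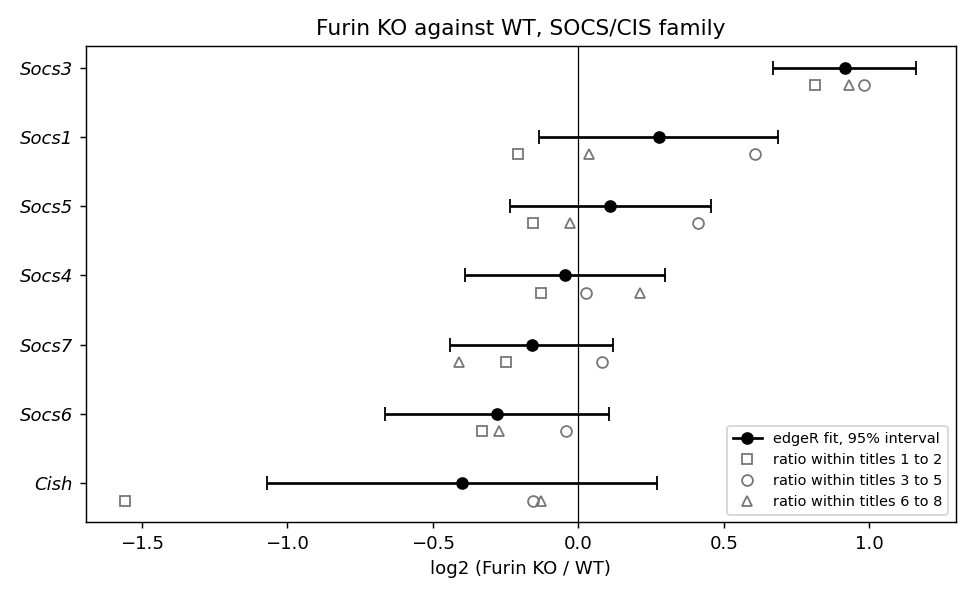
log2 ratio of Furin KO to WT for the 7 tested members. Black points and bars are the edgeR estimate with its 95% interval, and open symbols are the ratios within runs of consecutive titles. Socs3 stands at 0.92 with its 3 run ratios within its interval, the other 6 intervals span 0, and Cish has a ratio of -1.56 in the 7-week pair.

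The family sum was higher in Furin KO libraries, and the sum without Socs3 overlapped between the groups. The summed level of all 8 members was 617 ± 70.9 CPM in Furin KO (SD, n = 5) and 411 ± 24.0 CPM in WT (n = 3). Without Socs3 the other members summed to 172 ± 14.5 CPM in Furin KO, with a range of 151 to 186, and 175 ± 15.9 CPM in WT, with a range of 162 to 193. Socs3 made up 65.9% to 75.1% of the family's counts in Furin KO libraries and 56.0% to 58.7% in WT.

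Levels were set against each other per length. Scaled to the length of all annotated exons, the Socs3 level was 154 ± 24.2 CPM per kb in Furin KO and 81.6 ± 2.87 CPM per kb in WT. Over the 8 libraries it averaged 127 CPM per kb, rank 277 of 12495 tested genes with a length. Socs1 followed at a mean level of 12.5 CPM per kb, Socs4 at 8.06, Socs7 at 5.68, Socs5 at 2.55, Socs6 at 1.33, Cish at 1.30 and Socs2 at 0.0044. The ranges over the 8 libraries overlapped between Socs1 and Socs4, between Socs4 and Socs7 and between Socs6 and Cish, and were apart between the other neighbours. Socs1 was above Socs4 in 6 of 8 libraries, Socs4 above Socs7 in 7, and Socs6 above Cish in 5. Scaled to the longest coding transcript instead, Cish at 2.94 CPM per kb stood above Socs6 at 2.50, and the rest of the order was the same.

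**Figure D3:**
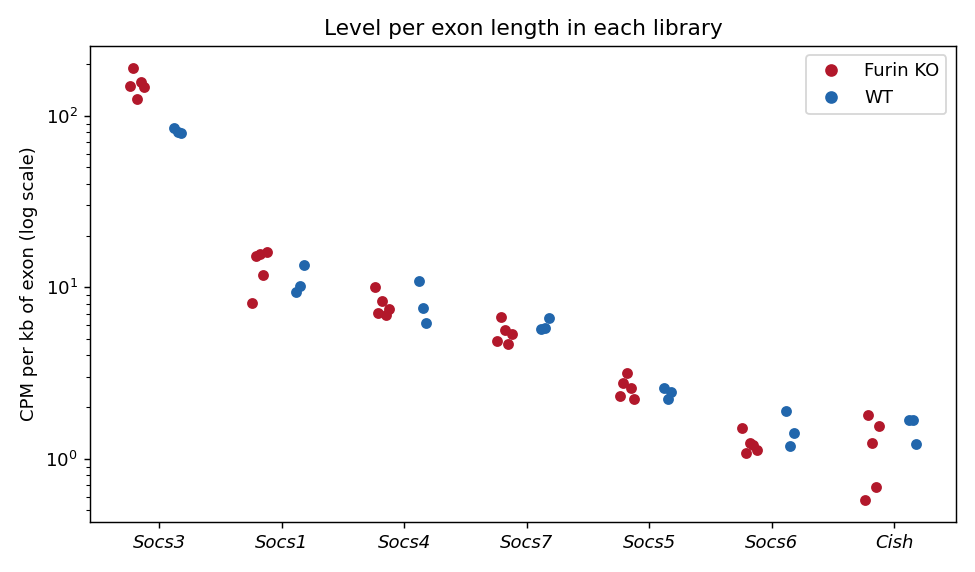
CPM per kb of annotated exon of the 7 tested members in each library, on a log scale, Furin KO left (red, n = 5) and WT right (blue, n = 3) at each gene. Socs3 lies between 79.9 and 191 CPM per kb, with no library of another member above 16.0.

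Between ages, which played no part in the choice of the family, 0 of the 7 tested members passed the edgeR test of age with genotype in the model. In that test 0.336% of the 12500 genes passed, and 0.0800% were higher at 8 weeks. 3 of the 7 members, Socs1, Socs4 and Socs6, had an unadjusted p under 0.05, where 13.5% of all genes did, and the same 3 had age groups that did not overlap, where 16.2% of all genes did. DESeq2 with the same model called 2 members, Socs4 and Socs1, among 382 genes. Only 2 libraries, 1 of each genotype, came from mice of 7 weeks, and they are also the first run of titles, so age and any difference in handling of that pair cannot be told apart.

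Socs4 had 42.7 to 57.3 CPM in the 6 libraries of 8 weeks (median 50.0), against 68.8 CPM in the Furin KO and 75.2 CPM in the WT library of 7 weeks. Its log2 fold change, 8 over 7 weeks, was -0.54 (SE 0.12, 95% interval -0.80 to -0.28, edgeR adjusted p = 0.0720, DESeq2 adjusted p = 0.00495). Over all 11 alternatives run on it, the adjusted p of this Socs4 difference lay between 0.00495 and 0.634.

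Socs1 had 29.6 to 46.6 CPM at 8 weeks (median 42.0), against 23.6 CPM in the Furin KO and 27.2 CPM in the WT library of 7 weeks. Its log2 fold change was 0.62 (SE 0.18, 95% interval 0.24 to 0.99, edgeR adjusted p = 0.140, DESeq2 adjusted p = 0.0216), with adjusted p of 0.0143 to 0.813 over its 11 alternatives. Socs6 had 12.3 to 16.0 CPM at 8 weeks (median 13.6), against 17.1 CPM in the Furin KO and 21.5 CPM in the WT library of 7 weeks. Its log2 fold change was -0.45 (95% interval -0.81 to -0.09, edgeR adjusted p = 0.255), with adjusted p of 0.220 to 0.757 over the alternatives that gave one.

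Socs3 had 231 to 553 CPM at 8 weeks (median 392), against 431 CPM in the Furin KO and 245 CPM in the WT library of 7 weeks. Its log2 fold change between 8 and 7 weeks was -0.01 (95% interval -0.27 to 0.25). The test of whether the genotype effect on Socs3 differs between 8 and 7 weeks gave a log2 difference of 0.14 (95% interval -0.42 to 0.70, edgeR adjusted p = 0.99998). In that test 0 of 12500 genes passed and 371, or 2.97%, had an unadjusted p under 0.05, and edgeR was the only tool run. Socs5, Socs7 and Cish had age differences of 0.04, 0.17 and 0.47 on the log2 scale, each with an interval that spans 0. Of the early response genes 12 of 12 tested members were below 0 at 8 weeks, with a median log2 fold change of -0.66. Klf6 and Cd69 passed the edgeR threshold (adjusted p = 0.0339 and 0.0497). The 8-week libraries were not alike, however. Fos had 85.8 to 204 CPM in titles 3 to 5 and 801 to 944 CPM in titles 6 to 8, against 1075 and 807 CPM at 7 weeks. Egr1 overlapped between these runs. Age and run of titles are thus mixed in this difference. The part of the early response genes in the age differences of Socs1, Socs4 and Socs6 was not tested.

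**Figure D4:**
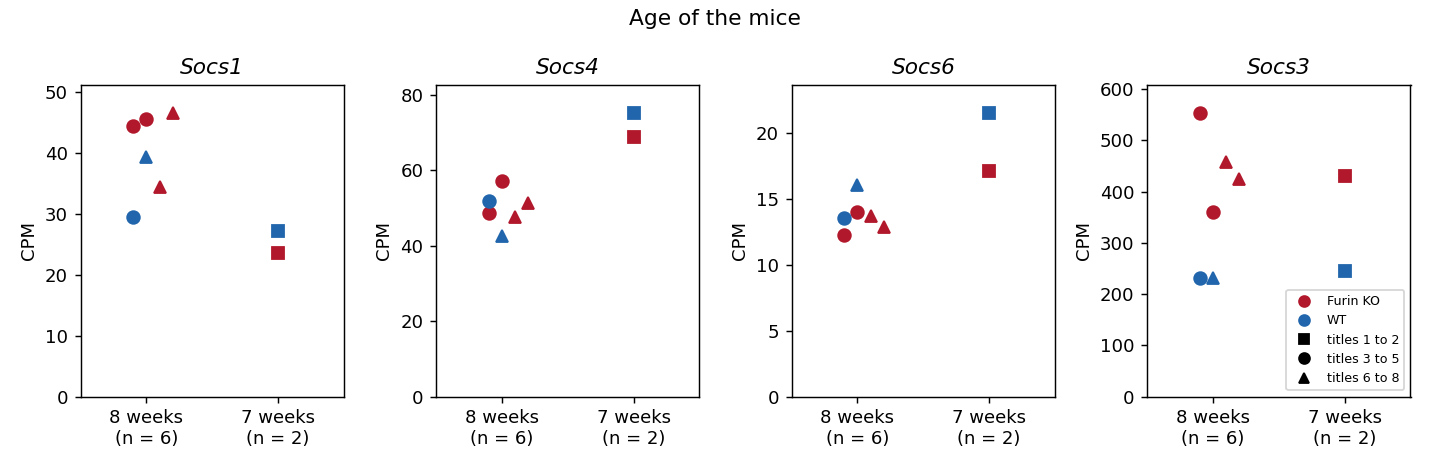
CPM of Socs1, Socs4, Socs6 and Socs3 by age, 8 weeks left (n = 6) and 7 weeks right (n = 2), coloured by genotype with symbols for runs of titles. At Socs1, Socs4 and Socs6 the 7-week pair lies outside the range of the 8-week libraries, and at Socs3 the libraries part by genotype at both ages.

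Members differed in how much they varied within a genotype, which includes any difference between ages and runs of titles. The SD of log2(CPM + 1) within groups was 0.53 for Cish, 0.37 for Socs1, 0.29 for Socs4 and 0.18 for Socs3. Among the tested genes nearest in level to each, these were above 95.2%, 97.4%, 97.6% and 82.8%, as a description. For Socs5, Socs6 and Socs7 the shares were 16.0%, 41.9% and 48.9%.

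The genes with the pattern most like that of Socs3 over the 8 libraries were sought among 9275 tested genes with a mean of at least 5 CPM. By Pearson's r of log2(CPM + 1) they were Gm32633 (0.98), Idh3b (0.98), Chst11 (0.94), Irf8 (0.94) and B430306N03Rik (0.93). These are the highest of many correlations over only 8 libraries, which also differ by genotype, and are given as a description.

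Around the family, 0 genes of the JAK-STAT pathway lists passed the edgeR test between the genotypes, where 0.0320% of all 12500 tested genes passed. With so few genes passing anywhere, 0 in a short list does not show that the list was unchanged. Of 4 Janus kinases 0 passed, 3 were above 0 and the median log2 fold change was 0.06. Jak3, which pairs with the common gamma chain, had 0.32 (95% interval 0.09 to 0.54), and Jak1, its partner kinase, had -0.08. Of 7 STAT genes 0 passed and 6 were above 0, with a median of 0.10. Stat3, an inducer of Socs3, had 0.17 (95% interval -0.04 to 0.39). Of 18 tested cytokine receptor chains 0 passed and 12 were above 0, with a median of 0.02. Il6st, which encodes gp130, had 0.02 (95% interval -0.19 to 0.22). Il12rb1, a chain of the interleukin-12 receptor, had 26.6, 26.1, 16.2, 24.8 and 22.4 CPM in Furin KO libraries, against 12.6, 10.3 and 16.2 CPM in WT. Its log2 fold change was 0.83 (edgeR adjusted p = 0.460), and it was called by DESeq2 (adjusted p = 0.0387) and by edgeR without the filter on low counts (adjusted p = 0.00522). The other 15 of 17 alternatives, limma-voom among them, did not call it. Il7r, the interleukin-7 receptor, had -0.29 and Ifngr2, a chain of the interferon-gamma receptor, -0.33. These lists hold 1, 1 and 4 genes with an unadjusted edgeR p under 0.05, where 3.21% of all tested genes had one.

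Among 13 cytokine genes 2 were tested and 0 passed, with Osm, a gp130 cytokine, at 0.20, and 8 had 0 counts in every library, including Il6, the cytokine best known to induce Socs3. Of 10 other JAK-STAT inhibitors 0 passed and 9 were below 0, with a median of -0.03. Pias3, an inhibitor of STAT3, had -0.43 and Ptpn6, the phosphatase SHP-1, -0.13. Of 8 partners in the SOCS box ubiquitin ligase 0 passed and the median was 0.02, with Cul2, a cullin, at 0.22 and Eloc, elongin C, at 0.17. Of 12 other SOCS box genes 0 passed and the median was 0.03, with Rab40c at 0.27. These 4 lists hold 0, 1, 0 and 0 genes with an unadjusted edgeR p under 0.05, where 3.21% of all tested genes had one. By DESeq2 and limma-voom 0 of their genes were called.

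Known targets of the STATs are given for STAT3 and STAT5. Of 11 tested STAT3 targets other than Socs3, 0 passed, 1 had an unadjusted p under 0.05 and 7 were above 0, with a median of 0.01. Bcl3, a nuclear IkB protein, had 60.1, 98.3, 78.8, 61.9 and 60.7 CPM in Furin KO libraries, against 51.1, 50.8 and 42.0 CPM in WT, with a log2 fold change of 0.59 (edgeR adjusted p = 0.792). Batf had 0.22 and Junb -0.28. Of 9 tested STAT5 targets 0 passed, 0 had an unadjusted p under 0.05 and 3 were above 0, with a median of -0.04 and Myc at 0.33. Among all tested genes 0.0320% passed the edgeR test and 3.21% had an unadjusted edgeR p under 0.05. DESeq2 and limma-voom called 0 genes of these lists, and Bcl3 was called by edgeR when low counts were not filtered (adjusted p = 0.00242). Pim1 is on both the STAT3 and STAT5 lists, and Stat3, Il6st, Junb, Il2ra, Lif and Osm are each on a target list and 1 other list.

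**Figure D5:**
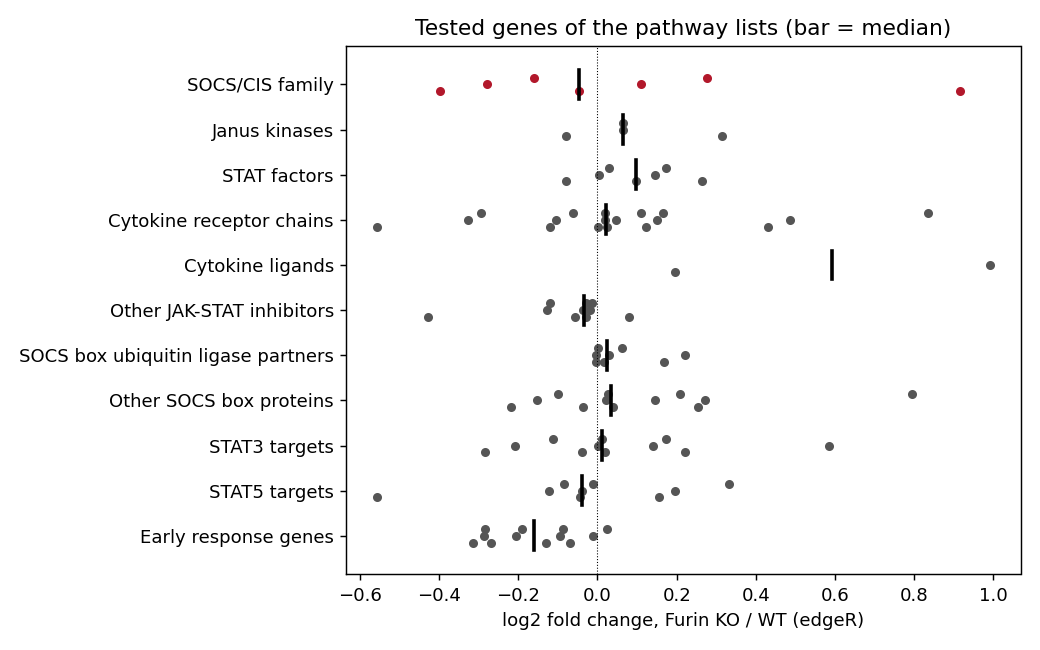
log2 fold change, Furin KO over WT, of each tested gene of the family (red) and of the pathway lists (grey), with a bar at each list's median. Socs3 at 0.92 stands apart from the other members of its family, with the lists' medians between -0.16 and 0.10 for those with over 2 tested genes.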

How the data were processed

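For 8 libraries the authors deposited raw counts, whole numbers per gene, in 1 table. The submitters' processing notes name FastQC, Trim Galore, STAR and DESeq2 1.24.0 and the build GRCm38. No source used here names the counting program, the annotation or whether strand was used. Columns were matched to samples by title, and Furin KO replicate 4 stands directly after the WT columns, ahead of the other Furin KO columns. GENCODE M21 (GRCm38) supplied symbols and positions for 55480 IDs and had none for 93.

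Counts were analysed with edgeR 4.0.16 (R 4.3.3): TMM scaling, filterByExpr on low counts with genotype as the group, and the two-sided quasi-likelihood test. P-values were adjusted by Benjamini-Hochberg across the 12500 tested genes, with a threshold of 0.05. Genotype was fitted without covariates, and age with genotype in the model. Replicate numbers follow accession order. No pair of libraries agreed within sampling noise (chi-square per degree of freedom of at least 11.1). The tests were checked on simulated data.

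The members, gene lists, runs of titles and tests were chosen with earlier results of these data known. All members are named. Of each pathway list, genes past the threshold, up to 3 of largest mean and up to 3 of largest change at a mean of at least 5 CPM could be named, and some of these are. Alternatives were RLE factors, library size alone, 2 other filters, DESeq2 1.42.0, limma-voom (limma 3.58.1), age or run of titles as a factor, the 8-week libraries alone and each library left out. Depth was 11308220 to 21040431 counts a library, and floors cover counting error only. A withheld item and 1 list tied to it are not reported here.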

Additional observations from a re-analysis of the deposited data

Results flagged for a closer look

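Within the 5 Furin KO libraries, Dixon's test at its 95% level set 1 library apart for 3 of the 35 values tested, and chance alone sets one apart in about 5% of groups. The total of Furin KO replicate 5 was 11.3 M counts, against 18.6 to 21.04 M in the other 4. Eloc, which encodes elongin C, a binding partner of the SOCS box, stood at 47.5 CPM in Furin KO replicate 3 against 36.03 to 39.2 CPM in the other 4. Myc, a STAT5 target, stood at 170.3 CPM in Furin KO replicate 3 against 312 to 362 CPM in the other 4. No member of the SOCS/CIS family was far from the rest in 1 Furin KO library by this test.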

How the results depend on the processing

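Socs3 kept its direction and its call between the genotypes under all 17 alternatives, with log2 fold changes of 0.83 to 0.98 and adjusted p of 2.62e-14 to 0.0383, and 1 member was called in each. The other members were called in none. The lowest adjusted p came from edgeR with every gene of at least 1 count. Because the family was chosen for the Socs3 result in these same libraries, its repeated call is a description and no support. Socs4 changed sign, at 0.0013 with limma-voom, 0.046 with age as a factor, 0.049 with the run of titles as a factor and 0.11 in the 8-week libraries alone, and ran from -0.21 to 0.21 with 1 library left out. Junb ran from -0.66 to 0.23 with 1 library left out. The causes were not tested. The 4 genes called became 38 with every gene of at least 1 count, 15 with DESeq2 and 12 with the run of titles as a factor, the 4 among them each time, and 3 to 5 with 1 library left out.

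For age, 42 genes were called, against 278 with every gene of at least 1 count and 382 with DESeq2, and 0 to 58 with 1 library left out. The count was 0 without Furin KO replicate 1 or 2 (877 and 1476 genes at an unadjusted p under 0.05), 1 without WT replicate 1, 11 without WT replicate 3, 21 without Furin KO replicate 4 and 19 without Furin KO replicate 5. A lone 7-week library was assumed to vary like the rest. Members called for age were 2 without the filter and 2 with DESeq2, Socs4 and Socs1 each time, and 0 to 1 with 1 library left out, the 1 being Socs4 without Furin KO replicate 3. The age difference ran from -0.085 to 0.061 for Socs3, from -0.15 to 0.21 for Socs5 and from -0.21 to 1.20 for Cish with 1 library left out. No paired analysis was possible because the replicate numbers only follow accession order and the labels pair no libraries. The run of titles, used as a factor above, is not a pairing that the labels give.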

Other observations

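With the genotype means removed, the genes most like each member over the 8 libraries, among 9275 genes with a mean of at least 5 CPM, differed from member to member. Socs3 was most like Clcn5, Lgals4 and Apobr (Pearson's r 0.96, 0.96 and 0.95). Socs1 was most like Polr2i, 2310057M21Rik and Hint1 (0.98 each). Socs4 was most like Cbl, AC098880.2 and Ppp1r12a (0.98, 0.97 and 0.97). Socs5 was most like G3bp2, Cacybp and Gemin5 (0.96 each). Socs6 was most like Ankrd10, Mdc1 and Clk1 (0.99, 0.98 and 0.98). Socs7 was most like Irf2bpl, Ndufaf1 and Trappc6b (0.99, 0.97 and 0.96). Cish was most like Desi1, Tnfaip8 and Lcmt1 (0.98, 0.97 and 0.96). These are the highest of 9275 correlations per member over 8 libraries, between which differences of age and run of titles remain, and are descriptions only.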
